A study of Mus musculus with 13 samples.

Results

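The neutrophil genes described here were 10 mouse genes chosen for the products that neutrophils carry: S100a8, S100a9, Ly6g, Retnlg, Mmp8, Csf3r, Ngp, Camp, Ltf and Elane. They were found by matching Entrez gene identifiers to mouse symbols, and 9 of the 10 had a row in each of the 3 count tables, the largest of which held 23725 genes. The level of Ly6g was not analysed here, and the gene counts only among the 10 of the promoter and seed results below.

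RNA was sequenced from the whole liver of 13 C57 mice aged 3 months. The no BDL group was 5 mice labelled as non treated. The miR-Ctrl BDL group and the group given anti-miR-873-5p, called anti-miR BDL below, were 4 mice each, killed 7 days after bile duct ligation (BDL), an operation that blocks bile flow and causes cholestatic injury, and given 60 µg per mouse of a control oligo or of an inhibitor of the microRNA miR-873-5p into a vein on days 3 and 5. No sham operation or injection is named for the no BDL mice, so ligation, surgery and injection cannot be told apart in a comparison with them. The question asked of these genes was how far their transcripts differed after ligation, and between the inhibitor and the control oligo.

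Neutrophils are short-lived white blood cells made in the bone marrow and drawn into injured tissue by chemokines such as the products of Cxcl1, Cxcl2 and Cxcl5. They kill microbes with proteins stored in granules, which are filled in a fixed order while the cell matures, so that azurophil proteins such as elastase are transcribed early and specific and gelatinase granule proteins later. In bile duct ligation they are known to gather in the injured liver. In bulk tissue, fewer cells of a type and less RNA per cell cannot be told apart.

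The total per mouse was 12185333 to 19689037 reads in the table of miR-Ctrl BDL and no BDL, 12857186 to 19385430 in that of anti-miR BDL and no BDL, and 13483226 to 15163990 in that of the ligated groups. The last table held 3 mice of each group and lacked miR-Ctrl BDL mouse 3 and anti-miR BDL mouse 2. Levels are CPM, read counts divided by the library's scaled total, computed over all 13 mice on the 22246 genes whose counts were equal wherever a mouse stood in more than 1 table. Group means printed beside fold changes of role-list genes, or between the ligated groups, were instead scaled over the mice of that comparison alone. Such means differ somewhat from the levels of single mice. The liver label fits its markers, since 6 hepatocyte genes summed to 69918 to 132410 CPM in the 13 mice. Liver macrophage and monocyte genes also moved with ligation, as given below beside the members.

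The promoters of S100a8, S100a9 and Csf3r are shown because these members gave the most reads. C/EBP and PU.1 are transcription factors of the granulocyte lineage, and capitals mark their core letters, TTNNGNAA for C/EBP and GAGGAA for PU.1, read on either strand. The 150 bases before the start of each promoter table entry are given 5′ to 3′ on the gene's own strand, from RefSeq, build GRCm38.p6. For Csf3r the start used by the RefSeq promoter table lies inside the gene's span as given below, downstream of its first annotated base.
S100a8 promoter, chr3:90668921-90669070, plus strand: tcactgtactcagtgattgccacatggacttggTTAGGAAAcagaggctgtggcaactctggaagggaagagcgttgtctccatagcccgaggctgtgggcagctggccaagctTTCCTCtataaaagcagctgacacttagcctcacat
S100a9 promoter, chr3:90695722-90695871, minus strand: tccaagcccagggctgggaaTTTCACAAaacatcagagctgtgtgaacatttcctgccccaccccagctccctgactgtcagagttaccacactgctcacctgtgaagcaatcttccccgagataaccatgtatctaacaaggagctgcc
Csf3r promoter, chr4:126024509-126024658, plus strand: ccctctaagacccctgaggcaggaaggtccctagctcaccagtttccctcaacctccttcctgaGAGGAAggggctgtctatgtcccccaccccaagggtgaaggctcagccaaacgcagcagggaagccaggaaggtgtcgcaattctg

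In the 250 bases before the start, 7 of the 10 members held the C/EBP letters, which occur in 36.8% of 32851 mouse promoters, and 6 of 10 held the PU.1 letters, which occur in 23.3%. A match of letters is a description and not a bound site. The microRNA that the inhibitor was made against is shown for its seed, bases 2 to 8, in capitals, from RefSeq (chromosome 4, 36668556 to 36668576, minus strand).
mmu-miR-873a-5p: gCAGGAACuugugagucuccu

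The letters that pair with this seed, GTTCCTG, occur in transcripts of 2 of the 10 members, Ltf and Elane, and in 22.4% of 55341 mouse genes.

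S100a8 and S100a9 lie 22595 bases apart on chromosome 3, at 90669071 to 90670034 and 90692630 to 90695721 in GRCm38, and encode the 2 chains of calprotectin, the most abundant protein of the neutrophil cytosol. S100a8 (Entrez 20201) stood at 0.172, 0.190, 0.256, 0.327 and 2.94 CPM in no BDL mice 1 to 5, at 2.98, 7.16, 76.1 and 19.0 CPM in miR-Ctrl BDL mice 1 to 4, and at 4.84, 3.17, 3.07 and 17.6 CPM in anti-miR BDL mice 1 to 4. All 8 ligated mice lay above all 5 no BDL mice, with no BDL mouse 5 just under the lowest of them, while the ligated groups overlapped. S100a9 (Entrez 20202) stood at 0.431, 0, 0.0852, 0.491 and 4.45 CPM in the no BDL mice, 5.22, 11.1, 102 and 29.6 CPM in the miR-Ctrl BDL mice and 8.12, 3.85, 4.64 and 26.3 CPM in the anti-miR BDL mice. No BDL mouse 5 was above anti-miR BDL mouse 2 for this gene, and miR-Ctrl BDL mouse 3 was the highest of the 13 for both.

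The group means of S100a8 were 0.777 ± 1.21 CPM (SD, n = 5) without ligation, 26.3 ± 33.9 CPM (SD, n = 4) in miR-Ctrl BDL and 7.18 ± 7.01 CPM (SD, n = 4) in anti-miR BDL. For S100a9 they were 1.09 ± 1.89, 37.1 ± 44.8 and 10.7 ± 10.5 CPM (SD, n = 5, 4 and 4). The SD exceeded the mean for both genes in no BDL and in miR-Ctrl BDL, because single mice stood far above their groups.

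Csf3r (Entrez 12986, chromosome 4, 126023441 to 126044975) encodes the receptor for G-CSF, the growth factor that drives neutrophil production. It stood at 3.01, 3.14, 5.03, 2.62 and 7.0 CPM in the no BDL mice, 10.2, 17.8, 23.8 and 14.9 CPM in the miR-Ctrl BDL mice and 9.25, 5.43, 10.8 and 24.3 CPM in the anti-miR BDL mice. The miR-Ctrl BDL mice were all above the no BDL mice, and anti-miR BDL mouse 2 fell below no BDL mouse 5. This was the most even member within groups, with means of 4.16 ± 1.84 (SD, n = 5), 16.7 ± 5.67 (SD, n = 4) and 12.4 ± 8.20 CPM (SD, n = 4).

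Retnlg (Entrez 245195, chromosome 16, 48872608 to 48874498) encodes a resistin-like protein that neutrophils secrete. Its level was 0.0861, 0, 0, 0.0818 and 0.318 CPM in the no BDL mice, 0.121, 1.3, 26.6 and 4.05 CPM in the miR-Ctrl BDL mice and 0.315, 1.21, 0.542 and 3.04 CPM in the anti-miR BDL mice. No BDL mouse 5 was above the lowest mouse of each ligated group. Mmp8 (Entrez 17394, chromosome 9, 7558429 to 7568486), the neutrophil collagenase, had 0 reads in no BDL mice 1 to 4 and 0.238 CPM in mouse 5, against 0.304, 0.716, 13.6 and 2.00 CPM in miR-Ctrl BDL and 0.440, 2.34, 0.662 and 1.08 CPM in anti-miR BDL. Every ligated mouse was above every no BDL mouse for Mmp8.

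Elane (Entrez 50701, chromosome 10, 79886312 to 79888216) encodes neutrophil elastase, an azurophil granule protease. It gave 1, 0, 1, 4 and 2 reads in the no BDL mice, 7, 9, 36 and 7 in the miR-Ctrl BDL mice and 13, 3, 0 and 14 in the anti-miR BDL mice. The miR-Ctrl BDL mice lay above the no BDL mice in CPM, and anti-miR BDL mouse 3 had no read.

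Ltf (Entrez 17002, chromosome 9, 111019292 to 111042766) encodes lactoferrin, the iron-binding protein of specific granules. It gave 0, 0, 0, 1 and 3 reads in the no BDL mice, 5, 5, 41 and 34 in the miR-Ctrl BDL mice and 15, 1, 4 and 13 in the anti-miR BDL mice. The miR-Ctrl BDL mice were all above the no BDL mice in CPM, and anti-miR BDL mouse 2, at 0.0754 CPM, was not.

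Camp and Ngp lie on the same chromosome as Ltf and Mmp8. Camp (Entrez 12796, chromosome 9, 109847377 to 109849456), the cathelicidin antimicrobial peptide, gave 0, 0, 0, 2 and 1 reads in no BDL, 4, 3, 12 and 11 in miR-Ctrl BDL and 7, 0, 0 and 9 in anti-miR BDL. Ngp (Entrez 18054, chromosome 9, 110419808 to 110423012), a neutrophil granule protein of the cystatin superfamily, gave 0, 0, 0, 0 and 4 reads in no BDL, 4, 5, 83 and 30 in miR-Ctrl BDL and 21, 2, 0 and 23 in anti-miR BDL. All of the no BDL reads of Ngp came from mouse 5, which overlapped the miR-Ctrl BDL mice for this gene. A count of 3 reads corresponded to 0.147 to 0.285 CPM in the 13 mice, so values near or below that range were at the limit of this depth.

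**Figure D1:**
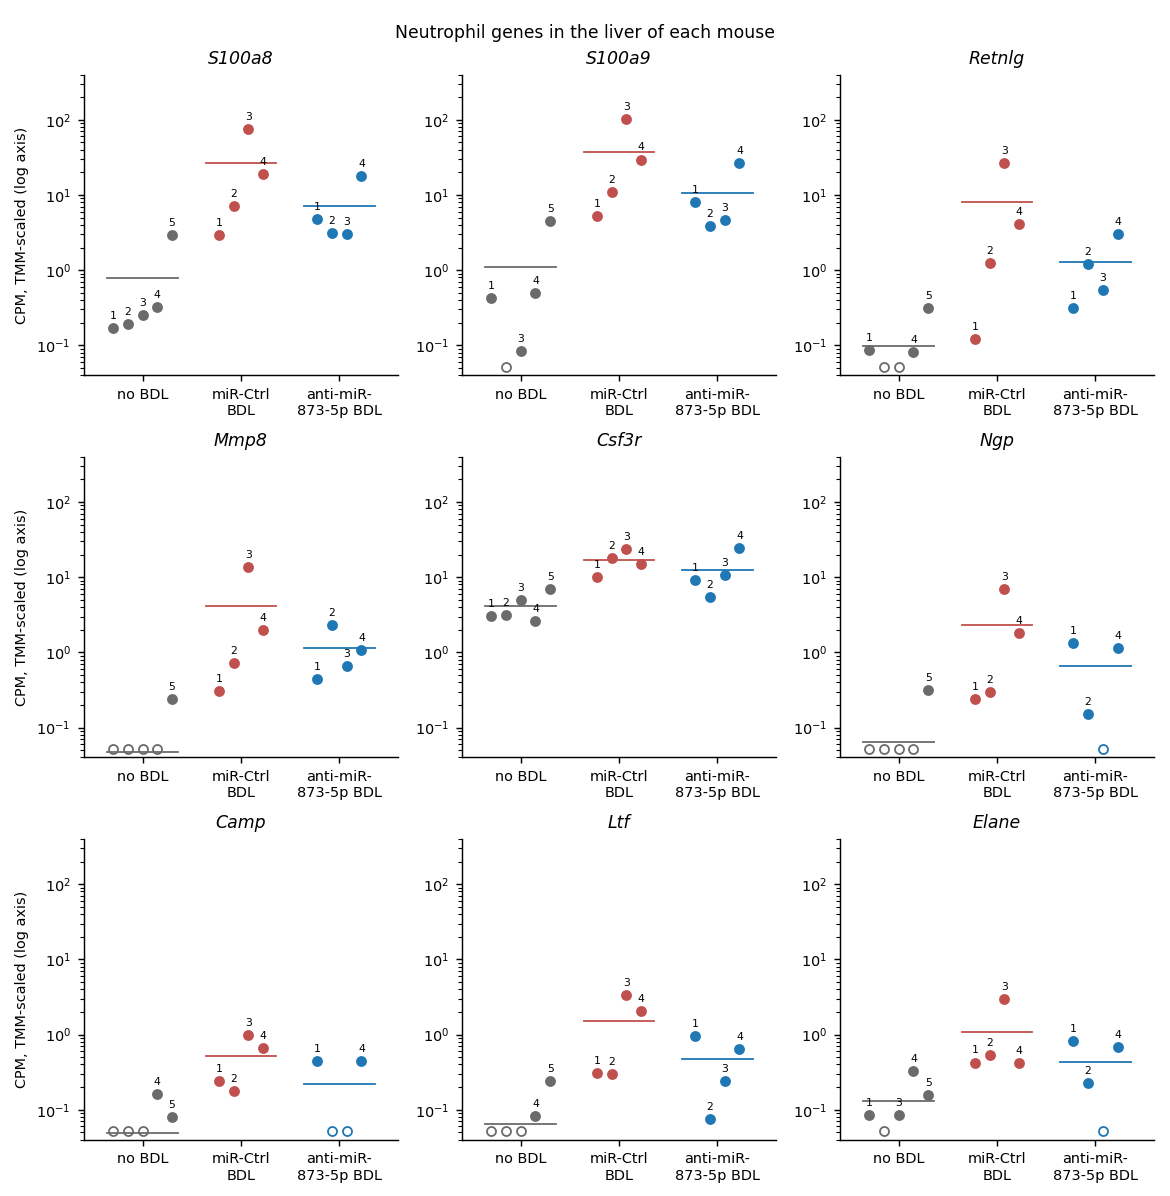
Level of the 9 neutrophil genes in each of the 13 mice, in CPM on a log axis, by group; points carry the mouse number, open points at the bottom have 0 reads and lines are group means. MiR-Ctrl BDL mouse 3 is highest for 8 of the 9 genes, and no BDL mouse 5 reaches 2.94 CPM of S100a8 where its 4 group mates stay at or under 0.327.

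The plot of levels by mouse shows that a few mice held most of the signal. MiR-Ctrl BDL mouse 3 was the highest of the 13 for 8 of the 9 members, and anti-miR BDL mouse 4 was the highest for Csf3r. MiR-Ctrl BDL mouse 3 held 72.3% of its group's summed S100a8 CPM and 83.1% of its Retnlg CPM. Over the median of the other 3 mice of its group, it stood 10.6-fold higher for S100a8, 21.2-fold for Retnlg, 23.1-fold for Ngp and 1.59-fold for Csf3r. Without the 2 mice missing from the table of the ligated groups, miR-Ctrl BDL mouse 4 was the highest for 7 of the 9. Summed over the 9 members, the mice held 35 to 198 reads without ligation (3.33 to 15.7 CPM), 330 to 3091 in miR-Ctrl BDL (20 to 257 CPM) and 218 to 1531 in anti-miR BDL (16.4 to 75.2 CPM).

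Per kilobase of exon, S100a9 was the highest member in all 3 groups, at 71.1 ± 85.8 CPM per kb in miR-Ctrl BDL, 20.5 ± 20.2 in anti-miR BDL (SD, n = 4 each) and 2.09 ± 3.62 in no BDL (SD, n = 5). S100a8 followed in the ligated groups, at 37.9 ± 48.8 and 10.3 ± 10.1 CPM per kb. The third place was held by Retnlg in miR-Ctrl BDL, at 13.5 ± 21.1 CPM per kb, and by Csf3r in anti-miR BDL, at 3.44 ± 2.27. Each of these differences between neighbours was smaller than the larger of the 2 SDs. The members were read in the same mice, so these SDs, which are between mice, do not measure how firm the order is. In the 9 mice with at least 20 S100a8 reads, S100a9 gave at least 1.21 reads per S100a8 read. Its exons span 522 bases against 694, so it stood above S100a8 per kb in each of those mice. In miR-Ctrl BDL the 5 lowest were Ngp at 1.89, Mmp8 at 1.72, Elane at 1.11, Camp at 0.687 and Ltf at 0.440 CPM per kb.

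The ratios between members were compared across mice. In the 9 mice with at least 20 S100a8 reads, S100a9 gave 1.21 to 1.76 reads per S100a8 read, a 1.45-fold range, with a median of 1.51. Csf3r gave 0.312 to 3.51 reads per S100a8 read, an 11.2-fold range, Mmp8 0.0613 to 0.738, a 12-fold range, and Retnlg 0.0408 to 0.381, a 9.33-fold range. The ratio within the calprotectin pair was thus nearly the same from mouse to mouse, while the ratios of Csf3r, Mmp8 and Retnlg to S100a8 varied more. Reads of one library share its depth, which these ratios remove, and the low counts of Mmp8 and Retnlg, down to 2 Retnlg reads in miR-Ctrl BDL mouse 1, widen theirs.

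**Figure D2:**
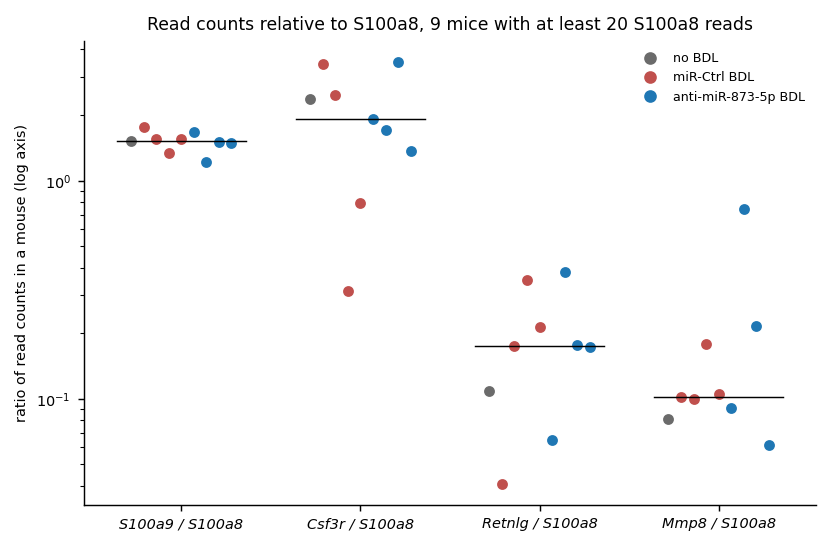
Reads of S100a9, Csf3r, Mmp8 and Retnlg per S100a8 read in the 9 mice with at least 20 S100a8 reads, on a log axis; each point is a mouse and the line is the median. S100a9 stays between 1.21 and 1.76, while Csf3r runs from 0.312 to 3.51.

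After ligation with the control oligo, transcripts of all 9 members were higher than in mice without ligation, and the test called each of them when no filter on low counts was set. The fitted rise was about 5 on the log2 scale for the calprotectin genes. Retnlg and Mmp8 had the highest fitted values, above the calprotectin genes by less than their own SEs. The smallest was that of Csf3r, which was already the most read member without ligation. In edgeR's quasi-likelihood test of every gene with at least 1 read, 9 of 9 members were called higher at a Benjamini-Hochberg adjusted p under 0.05, where 15.1% of all 18087 genes were. In this fit, S100a8 rose by a log2 fold change of 5.01 (SE 1.04, adjusted p = 0.00531) and S100a9 by 5.02 (SE 1.07, adjusted p = 0.00606). Csf3r rose by 2.00 (SE 0.32, adjusted p = 0.0012). Retnlg rose by 6.15 (SE 1.42, adjusted p = 0.0088) and Mmp8 by 6.09 (SE 1.38, adjusted p = 0.00825).

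Among the granule genes, the same fit gave Ngp a log2 fold change of 4.88 (SE 1.28, adjusted p = 0.0163), Ltf 4.28 (SE 1.03, adjusted p = 0.011), Camp 3.10 (SE 0.86, adjusted p = 0.0213) and Elane 2.88 (SE 0.83, adjusted p = 0.0255). These 4 values, and those of Retnlg and Mmp8, rest on 3 to 8 reads in the whole no BDL group and depend on the prior count of the fit. MiR-Ctrl BDL mouse 3 held 81.9% of its group's summed Mmp8 CPM, 74.5% of Ngp, 68.4% of Elane, 56.2% of Ltf and 47.8% of Camp. The fit without the filter was not repeated with a mouse left out, so how far these calls depend on mouse 3 was not tested. As ratios of summed reads with exact 95% intervals that cover counting error only, Retnlg was 64.9 times its no BDL level (29.5 to 178), with 83.1% of its summed level in miR-Ctrl BDL mouse 3, and Mmp8 67.7 times (22.9 to 331). On the same terms Ngp was 29.0 times its no BDL level (11 to 108), Ltf 20.2 times (7.60 to 75.7), Camp 9.49 times (2.95 to 48.6) and Elane 7.0 times (3.33 to 17.0).

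The usual filter on low counts left S100a8, S100a9 and Csf3r to be tested, and all 3 were called higher, beside 19.1% of 13072 genes called higher and 16.6% called lower. Since a gene could pass this filter through the ligated mice alone, that count is given as a description. On the CPM over all mice, the groups did not overlap for 7 of the 9 members, the exceptions being Retnlg and Ngp. All miR-Ctrl BDL mice were above all no BDL mice for 14.8% of the genes that passed the filter. Mmp8, Camp, Ltf and Elane did not pass it, so that share is no like-for-like background for them. For Camp the gap was small, with a lowest miR-Ctrl BDL level of 0.179 CPM and a highest no BDL level of 0.164 CPM. Without miR-Ctrl BDL mouse 3, the log2 fold changes of S100a8, S100a9 and Csf3r were 3.58, 3.75 and 1.78 (edgeR adjusted p = 0.00807, 0.0107 and 0.00208). Without no BDL mouse 5 they were 6.72, 7.11 and 2.28, and with both mice left out 5.30, 5.84 and 2.06 (edgeR adjusted p = 0.00049, 0.000451 and 0.000338).

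**Figure D3:**
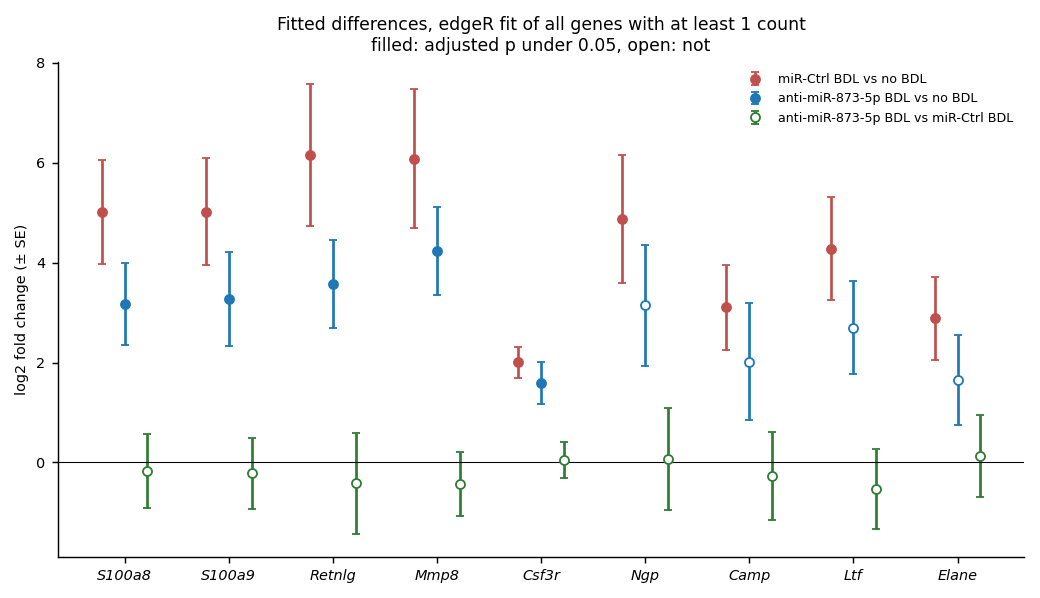
Log2 fold change of each of the 9 members, with its SE, in the 3 comparisons, from edgeR fits of all genes with at least 1 read; filled points have an adjusted p under 0.05. All 9 points are filled for miR-Ctrl BDL against no BDL, 5 for anti-miR BDL against no BDL and none between the ligated groups.

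In mice given anti-miR-873-5p after ligation, calprotectin, Csf3r, Retnlg and Mmp8 transcripts were also higher than in mice without ligation, by smaller fitted values, and the 4 remaining granule genes did not pass the test. The no BDL mice were the same 5 as above. In the edgeR fit of every gene with at least 1 read, 5 of 9 members were called higher, beside 10.6% of 18361 genes. S100a8 rose by a log2 fold change of 3.18 (SE 0.83, adjusted p = 0.0252), S100a9 by 3.27 (SE 0.94, adjusted p = 0.0378) and Csf3r by 1.59 (SE 0.42, adjusted p = 0.0265). Retnlg rose by 3.57 (SE 0.87, adjusted p = 0.0202) and Mmp8 by 4.24 (SE 0.89, adjusted p = 0.0103), the latter on 3 reads in the no BDL group, a ratio of summed reads of 21.0 (exact 95% interval 6.90 to 104).

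The values of the granule genes that were not called were 3.15 for Ngp (SE 1.21, adjusted p = 0.102), 2.70 for Ltf (SE 0.93, adjusted p = 0.0704), 2.02 for Camp (SE 1.17, adjusted p = 0.275) and 1.65 for Elane (SE 0.90, adjusted p = 0.241), all on the log2 scale. Their sign was positive in each case, and 30 reads or fewer were behind Camp and Elane in the 4 ligated mice. Whether the rise in these genes was smaller than in miR-Ctrl BDL is tested by the direct comparison of the ligated groups and not by these calls.

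Under the filter on low counts, S100a8, S100a9 and Csf3r were tested and called, with log2 fold changes of 3.19 (SE 0.87, adjusted p = 0.0288), 3.28 (SE 0.99, adjusted p = 0.0412) and 1.61 (SE 0.44, adjusted p = 0.0294), beside 13.1% of 13130 genes called higher and 8.44% called lower. On the CPM over all 13 mice, all anti-miR BDL mice were above all no BDL mice for 2 of the 9 members, S100a8 and Mmp8. The same held for 10.1% of the genes that passed the filter, which Mmp8 did not pass. These calls were close to the threshold. None of the 3 was called without no BDL mouse 1, 2, 3 or 4, or without anti-miR BDL mouse 4, and S100a8 alone was called without anti-miR BDL mouse 3. Over the fits with 1 mouse left out, the log2 fold change of S100a8 was 2.22 to 4.90 (edgeR adjusted p = 0.00403 to 0.103), that of S100a9 2.32 to 5.36 (adjusted p = 0.00494 to 0.151) and that of Csf3r 1.05 to 1.88 (adjusted p = 0.0088 to 0.0899). The lowest value of each came without anti-miR BDL mouse 4 and the highest of S100a8, S100a9 and Csf3r without no BDL mouse 5.

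Between the ligated groups, no neutrophil gene differed beyond the spread of the mice. In the table of 3 mice per group, S100a8 was at 10.3 ± 9.58 CPM in anti-miR BDL and 11.6 ± 9.86 CPM in miR-Ctrl BDL (SD, n = 3 each), a log2 fold change of -0.17 (SE 0.80, edgeR adjusted p = 0.976). S100a9 was at 15.7 ± 14.0 and 18.4 ± 15.1 CPM, a log2 fold change of -0.22 (SE 0.77, adjusted p = 0.969). Csf3r was at 17.8 ± 9.96 and 17.2 ± 4.62 CPM, a log2 fold change of 0.05 (SE 0.39, adjusted p = 0.984). The standard errors of the calprotectin genes were several times their differences, so these data set no narrow bound on a difference in either direction.

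Of the 9 members, 7 passed the filter in this table and 0 were called, where edgeR called 0% of 13746 genes higher and 0% lower and 863 genes had an unadjusted p under 0.05. DESeq2 called 31 genes, 19 higher and 12 lower in anti-miR BDL, with 0 members among them and no adjusted p for 5 members. The groups overlapped for all 9 members, as they did for most genes. Of the genes tested, 6.59% had all anti-miR BDL mice higher and 4.77% had all lower, so the overlap does not set the members apart. Retnlg gave a log2 fold change of -0.41 (SE 1.09, adjusted p = 0.955), Mmp8 -0.43 (SE 0.67, adjusted p = 0.931), Ltf -0.53 (SE 0.84, adjusted p = 0.931) and Ngp 0.08 (SE 1.07, adjusted p = 0.993). Camp at -0.27 (SE 0.88, adjusted p = 0.969) and Elane at 0.13 (SE 0.81, adjusted p = 0.994) were tested only without the filter.

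The direction between the ligated groups turned on which mice were used. The median log2 fold change of the 7 members tested was -0.22 with 3 mice per group and -1.77 with all 4, where all 7 were below 0, from -2.59 for Retnlg to -0.41 for Csf3r, and none was called (edgeR adjusted p = 0.98 for each). With miR-Ctrl BDL mouse 4 also left out, 0 of 8 members tested were below 0 and the median was 0.71. With anti-miR BDL mouse 4 also left out, 7 of 7 were below 0 and the median was -0.85. With all mice except miR-Ctrl BDL mouse 3 and anti-miR BDL mouse 4, 4 of the 5 members tested were below 0 and the median was -1.37.

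The wider neutrophil programme was followed in 78 other genes of recruitment and function in 7 role lists. In the edgeR fits of every gene with at least 1 read, 57 of the 76 that had reads were called higher and 3 lower in miR-Ctrl BDL against no BDL, and 38 of 76 higher and 2 lower in anti-miR BDL. Of all genes in these fits, 15.1% were called higher in miR-Ctrl BDL and 10.6% in anti-miR BDL. Under the filter on low counts, 49 of 61 rose and 3 fell in miR-Ctrl BDL (median log2 fold change 2.14), and 30 of 54 higher and 2 lower in anti-miR BDL, with a median of 1.69. A gene could pass this filter through the ligated mice alone, so these counts and those of the single lists, which used it, are a description. The 32 calls in anti-miR BDL fell to 14 and 15 without anti-miR BDL mouse 4 and mouse 3, and to 16 to 18 without any 1 of no BDL mice 1 to 4. Of all genes that passed the filter, 19.1% were called higher and 16.6% lower in miR-Ctrl BDL, and 13.1% and 8.44% in anti-miR BDL. Their medians were -0.011 and -0.0070, and the counts of the single lists below stand beside the same shares. Between the ligated groups 0 of 66 were called, with a median of -0.20 and a lowest edgeR adjusted p of 0.757.

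**Figure D4:**
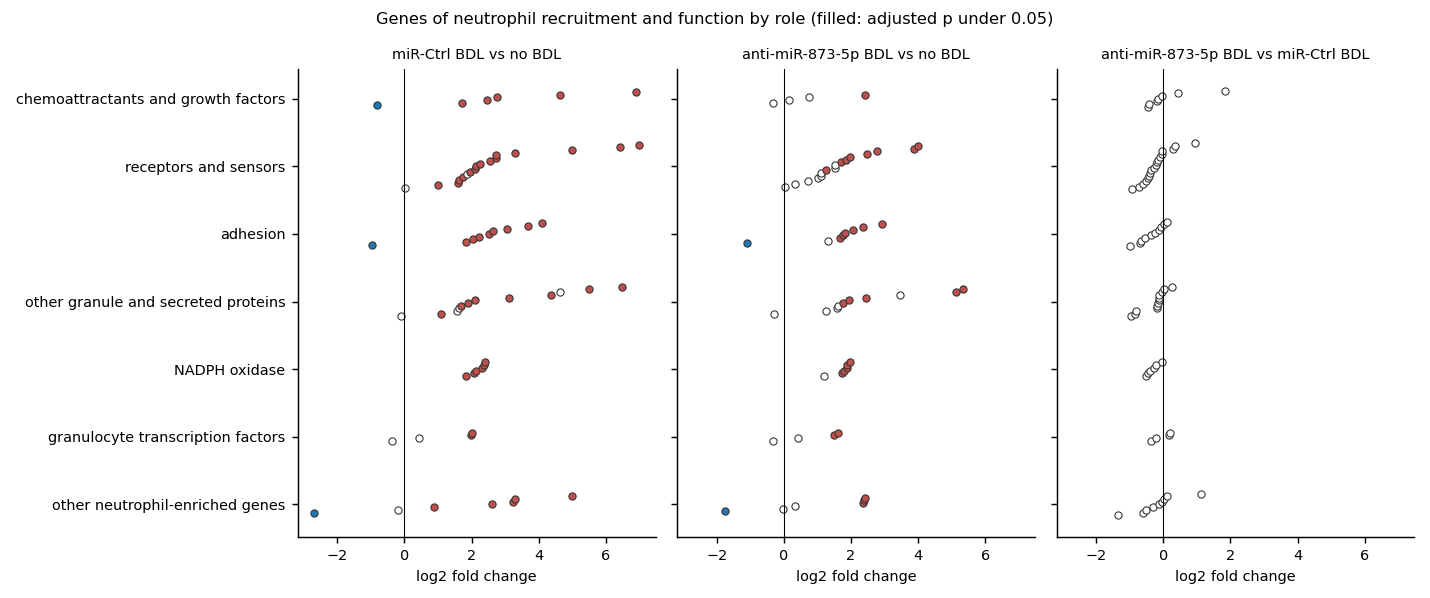
Log2 fold change of each tested gene of the 7 role lists in the 3 comparisons; filled points have an adjusted p under 0.05, red for higher and blue for lower. Against no BDL, 49 genes are higher in miR-Ctrl BDL and 30 in anti-miR BDL, and no point is filled between the ligated groups.

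Of the chemoattractants and growth factors, 5 of 6 tested rose and 1 fell in miR-Ctrl BDL. The means in this paragraph are CPM scaled over the mice of the comparison alone, unlike the levels per mouse in the next. Cxcl1, a ligand of the neutrophil receptor CXCR2, was at 45.8 ± 17.7 CPM against 6.69 ± 2.75 CPM without ligation (SD, n = 4 and 5), a log2 fold change of 2.77 (SE 0.37, adjusted p = 0.000617). Cxcl5, another CXCR2 ligand, was at 5.33 ± 1.09 against 0.201 ± 0.231 CPM, a log2 fold change of 4.62 (SE 0.52, adjusted p = 0.000284). Cxcl12, which holds neutrophils in the marrow, fell by 0.82 on the log2 scale (SE 0.23, adjusted p = 0.019). In anti-miR BDL, Cxcl1 was the 1 of 4 tested that was called, with a log2 fold change of 2.41 (SE 0.39, adjusted p = 0.00391), while Cxcl12 gave -0.32 (SE 0.19, adjusted p = 0.259) and Il1b 0.76 (SE 0.63, adjusted p = 0.42).

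The chemokines did not follow one pattern across mice. Cxcl2 stood at 1.03, 6.74, 84.9 and 2.24 CPM in miR-Ctrl BDL, at 0.378, 2.34, 3.61 and 3.34 CPM in anti-miR BDL and at 0.327 CPM or less without ligation. Its log2 fold change in miR-Ctrl BDL was 6.90 (SE 1.52, adjusted p = 0.00663), and 4.10 without mouse 3 (adjusted p = 0.00235). Cxcl5 stood at 5.16, 6.56, 8.23 and 5.68 CPM in miR-Ctrl BDL and at 2.27, 0.452, 4.46 and 55.2 CPM in anti-miR BDL. MiR-Ctrl BDL mouse 3, highest for most members, was thus far above its group for Cxcl2, and anti-miR BDL mouse 4, highest for Csf3r, for Cxcl5. Csf3, which encodes G-CSF, had 0 reads in all 5 no BDL mice, 4.82 CPM in miR-Ctrl BDL mouse 3 and at most 0.120 CPM in the other ligated mice.

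**Figure D5:**
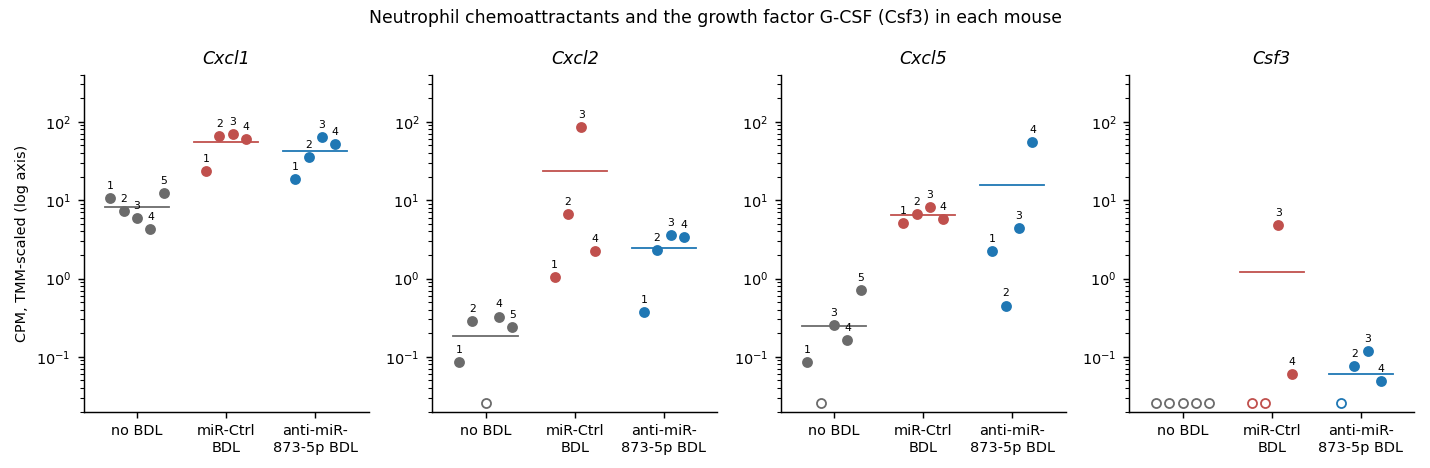
Level of Cxcl1, Cxcl2, Cxcl5 and Csf3 in each of the 13 mice, in CPM on a log axis, by group; points carry the mouse number, open points have 0 reads and lines are group means. Cxcl2 peaks at 84.9 CPM in miR-Ctrl BDL mouse 3 and Cxcl5 at 55.2 CPM in anti-miR BDL mouse 4.

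Of the receptors and sensors, 15 of 17 tested rose in miR-Ctrl BDL and 8 of 16 in anti-miR BDL. Clec4e, a C-type lectin that senses damaged cells, rose by a log2 fold change of 6.43 (SE 1.3, adjusted p = 0.00439) with the control oligo and by 4.01 (SE 0.74, adjusted p = 0.00614) in anti-miR BDL. It stood at 26.9 CPM in miR-Ctrl BDL mouse 3 and at 1.64 to 2.24 CPM in the rest of that group, and its log2 fold change without that mouse was 4.39 (adjusted p = 0.000814). Csf2rb, the shared chain of the GM-CSF receptor, rose by 1.61 (SE 0.32, adjusted p = 0.00438) after ligation with the control oligo, and Il17ra, an interleukin-17 receptor chain, by 1.00 (SE 0.33, adjusted p = 0.0403). Il17ra was at 87.5 CPM in miR-Ctrl BDL mouse 3 against 25.6 to 31.4 CPM in the rest of the group, with a log2 fold change of 0.41 without that mouse (adjusted p = 0.0198), and was not called without any 1 of the 5 no BDL mice (adjusted p = 0.0516 to 0.0867). It gave 0.34 in anti-miR BDL (SE 0.14, adjusted p = 0.123), where the Fc receptor gene Fcgr3 rose by 1.86 (SE 0.42, adjusted p = 0.0146) and the lectin gene Clec4d by 3.87 (SE 0.93, adjusted p = 0.0183). Trem1, an amplifying receptor of neutrophils and monocytes, had 1 read in all no BDL mice together and 11, 24, 130 and 15 reads in the miR-Ctrl BDL mice, so that each of these mice held more than all no BDL mice together.

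Cxcr2, the receptor that neutrophils use to follow these chemokines, is named after its values were seen. It ranged from 5.23 to 8.52 CPM without ligation, 4.92 to 9.89 CPM in miR-Ctrl BDL and 5.36 to 9.43 CPM in anti-miR BDL. The log2 fold changes against no BDL were 0.01 (SE 0.23, adjusted p = 0.978) and 0.02 (SE 0.21, adjusted p = 0.944). The 3 ranges overlapped almost wholly.

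Of the adhesion genes, 8 of 9 tested rose in miR-Ctrl BDL and 6 of 8 in anti-miR BDL, and Selp, the selectin of platelets and endothelium, was the 1 that fell in each. Itgam, the alpha chain of the integrin Mac-1, rose by a log2 fold change of 3.67 (SE 0.66, adjusted p = 0.00253) and 2.92 (SE 0.60, adjusted p = 0.00997). Its ligand Icam1 rose by 2.62 (SE 0.58, adjusted p = 0.00693) and 1.76 (SE 0.52, adjusted p = 0.037), and Vcam1 by 2.23 (SE 0.34, adjusted p = 0.00114) and 2.05 (SE 0.43, adjusted p = 0.0102). Cd177, a neutrophil surface glycoprotein, rose by 4.10 (SE 0.66, adjusted p = 0.00152) in miR-Ctrl BDL.

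Of the other granule and secreted proteins, 8 of 12 tested rose in miR-Ctrl BDL and 5 of 10 in anti-miR BDL. Slpi, an inhibitor of elastase, rose by a log2 fold change of 6.5 (SE 0.68, adjusted p = 0.000212) and 5.33 (SE 0.69, adjusted p = 0.00165), and Chil3, a chitinase-like protein, by 5.50 (SE 0.85, adjusted p = 0.00122) and 5.12 (SE 1.09, adjusted p = 0.0115). Lcn2, an iron-siderophore binder of specific granules that hepatocytes also make, was at 4.91, 2.85, 5.62, 8.51 and 679 CPM in the no BDL mice and at 1605 to 6589 CPM in the miR-Ctrl BDL mice. No BDL mouse 5 stood far above its group, and the log2 fold change of 4.63 was not called (SE 1.67, adjusted p = 0.0543), but was 9.30 without that mouse (adjusted p = 6.29e-05). Hp gave 1.57 (SE 0.59, adjusted p = 0.062) and 1.24 (SE 0.58, adjusted p = 0.15) in the same order of groups, and Lrg1 gave 1.58 (SE 0.51, adjusted p = 0.0505) in anti-miR BDL. Prtn3, the azurophil protease beside Elane in function and named after its values were seen, was at 23.3 CPM in no BDL mouse 5, at most 0.982 CPM in that mouse's group mates and 4.90 to 29.9 CPM in miR-Ctrl BDL.

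The NADPH oxidase, which makes the oxidative burst, was covered by 6 genes, of which 6 rose in miR-Ctrl BDL and 5 in anti-miR BDL. Cybb, its catalytic chain, rose by a log2 fold change of 2.41 (SE 0.43, adjusted p = 0.0026) and 1.97 (SE 0.48, adjusted p = 0.0202), and Cyba by 2.14 (SE 0.34, adjusted p = 0.00131) and 1.74 (SE 0.41, adjusted p = 0.0166). Of 4 transcription factors tested, Spi1, which encodes PU.1, rose by 1.99 (SE 0.45, adjusted p = 0.0075) and 1.60 (SE 0.50, adjusted p = 0.0455), and Cebpd by 2.00 (SE 0.43, adjusted p = 0.00574) and 1.5 (SE 0.40, adjusted p = 0.0267). Cebpb gave 0.43 (SE 0.40, adjusted p = 0.444) and 0.41 (SE 0.35, adjusted p = 0.429).

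Of the other neutrophil-enriched genes, 5 of 7 tested rose in miR-Ctrl BDL and 3 of 6 in anti-miR BDL, and G0s2, an inhibitor of fat breakdown also made by hepatocytes, fell in both. G0s2 gave a log2 fold change of -2.69 (SE 0.50, adjusted p = 0.00303) and -1.76 (SE 0.50, adjusted p = 0.0334). Il1rn, the interleukin-1 receptor antagonist, rose by 5.00 (SE 1.16, adjusted p = 0.00844) and 2.40 (SE 0.69, adjusted p = 0.0355). It reached 460.3 CPM in miR-Ctrl BDL mouse 3, against 21.3 to 37.9 CPM in the rest of that group, and its log2 fold change without that mouse was 2.82 (adjusted p = 0.00978). Trem3 rose by 3.29 (SE 0.45, adjusted p = 0.000678) in miR-Ctrl BDL and Ifitm6 by 2.43 (SE 0.70, adjusted p = 0.0343) in anti-miR BDL, where Hdc gave -0.03 (SE 0.65, adjusted p = 0.977).

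Several calls of these lists in anti-miR BDL were close to the threshold and were lost when any 1 of several mice was left out. Icam1, Spi1, G0s2, Ifitm6 and Il1rn were each not called there without any 1 of no BDL mice 1 to 4 or of anti-miR BDL mice 3 and 4 (edgeR adjusted p = 0.0547 to 0.136). Cebpd was not called without no BDL mouse 2, 3 or 4 or anti-miR BDL mouse 3 or 4 (adjusted p = 0.0513 to 0.0766), Cybb without no BDL mouse 2 or 4 or anti-miR BDL mouse 3 or 4 (adjusted p = 0.0504 to 0.0636), and Cyba without anti-miR BDL mouse 3 or 4 (adjusted p = 0.0526 and 0.0542).

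Between the ligated groups, the role lists gave values without calls in edgeR. The largest were 1.84 for Cxcl5 (SE 1.08, adjusted p = 0.811), set by anti-miR BDL mouse 4, -1.34 for Trem3 (SE 0.49, adjusted p = 0.757) and 1.13 for G0s2 (SE 0.47, adjusted p = 0.775). Slpi was at 30.4 ± 9.60 CPM in anti-miR BDL and 58.9 ± 3.80 CPM in miR-Ctrl BDL (SD, n = 3 each), a log2 fold change of -0.95 (SE 0.21, adjusted p = 0.757). DESeq2 called Slpi lower, at -0.97 (SE 0.24, adjusted p = 0.0329), the 1 gene of the role lists that it called. Cd177 gave -1.01 (SE 0.47, adjusted p = 0.781), Fpr2 -0.94 (SE 0.66, adjusted p = 0.833), Il1r2 0.93 (SE 0.73, adjusted p = 0.848), Lcn2 -0.85 (SE 0.55, adjusted p = 0.811), Itgb2 -0.70 (SE 0.36, adjusted p = 0.788) and Cxcl1 -0.16 (SE 0.51, adjusted p = 0.963). Of the rest named by the rule, Cxcl12 gave 0.45, Il1f9 -0.46, Fcgr3 -0.09, Il17ra -0.04, Icam1 -0.25, Vcam1 -0.06, Hp -0.14, Cybb -0.40, Cyba -0.29, Rac2 -0.52, Cebpb 0.15, Spi1 -0.35, Cebpd -0.21 and Il1rn -0.52 on the log2 scale.

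Markers of other cells moved with ligation beside the neutrophil genes. Their calls, here and in the next paragraph, used the filter on low counts. Of all genes that passed it, 19.1% were called higher in miR-Ctrl BDL and 13.1% in anti-miR BDL. Of 8 monocyte and macrophage genes, 8 were called higher in miR-Ctrl BDL (median log2 fold change 1.91) and 3 in anti-miR BDL, and their summed level was 85.6 to 346 CPM without ligation, 607 to 1240 CPM in miR-Ctrl BDL and 262 to 692 CPM in anti-miR BDL. Kupffer cell genes, those of resident liver macrophages, were called higher for 2 of 5 and 1 of 5, with sums of 79.0 to 500, 523 to 1219 and 276 to 965 CPM. Monocytes also transcribe S100a8, S100a9 and Csf3r, and their part in the values of these members was not tested. MiR-Ctrl BDL mouse 3, whose values were looked up after it was seen to be the highest for most members, gave the top sum of 1240 CPM. Of that sum, 1023 CPM was Cd14. The monocyte receptors Ccr2 and Cx3cr1 were at 2.49 and 1.75 CPM in that mouse, against 14.1 to 30.2 and 8.41 to 22.4 CPM in the rest of its group. Csf1r at 65.1 CPM, Mpeg1 at 94.6 CPM, Cd68 and Ly6c2 were also lowest of the group in that mouse, and Adgre1 was not.

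Eosinophil, basophil and mast cell genes, which mark the other granulocytes, summed to 0 to 0.636 CPM without ligation, 0.831 to 2.69 CPM in miR-Ctrl BDL and 1.06 to 1.47 CPM in anti-miR BDL. The eosinophil peroxidase gene Epx and the mast cell and basophil receptor gene Fcer1a had 0 reads in all 13 mice. T and NK cell genes summed to 3.79 to 10.1, 0.831 to 8.10 and 0.679 to 5.74 CPM in the same order, 4 B cell genes to 2.62 to 4.35, 0.831 to 2.48 and 0.151 to 2.70 CPM, and platelet genes to 3.71 to 8.84, 4.74 to 10.1 and 4.88 to 8.44 CPM. The 6 erythroid genes, a measure of blood left in the samples or of erythropoiesis, summed to 588 to 3277 CPM without ligation, 123 to 751 CPM in miR-Ctrl BDL and 128 to 1361 CPM in anti-miR BDL. Of the erythroid list, 0 genes were called higher in either ligated group, and Alas2 was called lower in both. The median log2 fold change of those tested was -1.51 and -1.37, and 16.6% and 8.44% of all genes were called lower. Cholangiocyte genes were called higher for 5 of 5 in both ligated groups, and the 4 with identical counts in the tables (without Spp1) summed to 10.6 to 14.0, 42.4 to 79.4 and 37.5 to 92.0 CPM, and the sums of 6 hepatocyte genes were 118025 to 132410, 77853 to 115896 and 69918 to 119177 CPM.

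The genes most alike in pattern to the members were sought over the 8 ligated mice, by Pearson's r of log2 levels with the mean profile of the 6 members that averaged at least 10 reads. Of 12808 genes, the 8 with the highest r were Eif4a3l1 (r = 0.990), Arf6 (0.973), Rpp38 (0.968), Dimt1 (0.964), Spic (0.953), Srsf3 (0.933), Mcfd2 (0.929) and Mcemp1 (0.927). For Eif4a3l1, Spearman's rho was 0.952 and r was 0.982 without the 2 mice farthest from the median profile, miR-Ctrl BDL mice 3 and 4. Without those mice r was 0.940 for Arf6 and fell to 0.756 to 0.877 for the other 6, the lowest being Mcfd2 and the highest Rpp38. Of these, Mcemp1 is a membrane protein of mast cells and neutrophils and Spic a factor related to PU.1. The measure ignores the size of the swing. With the prior count of 2 that was added for the log scale, the level ran from 1.72 to 2.97 CPM for Eif4a3l1 and from 0.440 to 4.38 CPM for Mcemp1, and the order rests on 8 libraries and is a description.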

How the data were processed

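Liver RNA of 13 mice was measured. The authors made TruSeq RNA v2 libraries from 700 ng of RNA and sequenced single 50 nt reads, and the submitters' processing notes name CASAVA 1.8.2, FastQC, Trim Galore, TopHat, DESeq2 and build mm10. The deposited values were raw counts per Entrez gene, in 1 table per comparison. The counting program and its annotation, strand setting and treatment of shared reads are not given in the sources used here. The authors filtered outliers by clustering, without naming the mice, and the table of the ligated groups lacked 1 mouse of each.

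Each table was fitted with edgeR 4.0.16 (limma 3.58.1, R 4.3.3): filterByExpr, TMM scaling, quasi-likelihood test, 2-sided, Benjamini-Hochberg adjustment over all genes tested, threshold 0.05. SE is the absolute log2 fold change over the square root of F. DESeq2 1.42.0, other scalings and filters, a replicate block, 3 groups in 1 fit and each mouse left out were the alternatives, and scripts were tested on simulated data. Fits with 2 mice left out were added after seeing the data. Levels are CPM with TMM over all mice, except group means scaled over the mice of 1 comparison where stated. Levels per kb use exon lengths from GENCODE M21. Tables and plots used Python 3.11.15, pandas 2.3.3 and SciPy 1.17.1. Labels name mice by number only, so p-values measure the spread between these samples.

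The members and gene lists were chosen with earlier results of these data known. All members were named, with the 2 genes of highest mean level and the 2 of largest absolute log2 fold change in each role list and comparison, and the 8 genes most alike in pattern. A pair of genes that this rule names is not reported here.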

Additional observations from a re-analysis of the deposited data

Results flagged for a closer look

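Within groups of 4 or 5 mice, a gap test (Dixon's ratio of the gap to the nearest mouse over the group's range, at the 95% critical value) was run on the CPM of each member in each group that had a mouse above 3 reads. It marked 8 of 24 groups. The rate of about 1 in 20 that its critical value sets holds for normally distributed values, which CPM from few reads are not. The marks are therefore a description, and the members are not independent of each other. No BDL mouse 5 stood apart for S100a8 at 2.94 CPM, S100a9 at 4.45 CPM, Retnlg at 0.318 CPM and Ngp at 0.318 CPM, the last on 4 reads. It was 13.2-fold above the median of the other no BDL mice for S100a8 and 17.3-fold for S100a9. MiR-Ctrl BDL mouse 3 stood apart for Retnlg at 26.6 CPM, Mmp8 at 13.6 CPM and Elane at 2.99 CPM. Anti-miR BDL mouse 4 stood apart for S100a8 at 17.6 CPM, 5.56-fold above the median of the others.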

How the results depend on the processing

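Against no BDL, S100a8, S100a9 and Csf3r kept a positive sign in every setting. The number of members called in miR-Ctrl BDL was 3, and 9 by DESeq2, 9 with all genes of at least 1 count, 6 with a mean of at least 10 counts, 7 with all 3 groups in 1 fit and 3 to 5 with 1 mouse left out. In anti-miR BDL it was 3, and 5 by DESeq2, 5 with all genes of at least 1 count and 0 to 5 with 1 mouse left out. The fits with 1 mouse left out used the filter on low counts, so they cover only the members that passed it. Role-list genes called there were 32, and 14 to 43 with 1 mouse left out. Between the ligated groups DESeq2 called 1 role-list gene against 0.

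Scaling by library size alone moved the median of all genes to 0.79 and 0.82 on the log2 scale and the calls higher and lower from 2491 and 2175 to 9360 and 275 in miR-Ctrl BDL, and from 1715 and 1108 to 10063 and 131 in anti-miR BDL, and the members remained positive relative to that shift. With 1 mouse left out, the calls of all genes in anti-miR BDL ranged from 904 to 2500 higher and 357 to 1817 lower.

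Mouse numbers shared between groups were not taken as pairs. Same-numbered deviations correlated at 0.54, -0.37, -0.35 and 0.22 between the ligated groups and from -0.19 to 0.064 otherwise. Differently numbered mice were not compared, so this check cannot settle whether the mice were paired. With the replicate block, the median of the members in anti-miR BDL against no BDL was 4.71. No BDL mouse 5 has no numbered partner and adds nothing to that fit. Between the ligated groups the block gave S100a8 0.24 and S100a9 0.19, the fit of 3 groups gave Csf3r -0.41 and Ngp -1.75, and all 4 mice gave Csf3r -0.41 and Ngp -1.74. With 1 mouse left out, the values were -1.29 to 0.75 for S100a8, -1.26 to 0.68 for S100a9, -2.04 to 0.95 for Retnlg, -0.86 to 0.52 for Mmp8, -0.51 to 0.30 for Csf3r, -0.39 to 1.57 for Ngp and -0.95 to 0.99 for Ltf. The cause was not tested. Granule genes with under 10 reads in no BDL are limited by depth.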
